A study of Mus musculus with 6 samples.

Results

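The vascular growth factors of the Vegf family, their receptors and the angiopoietin system were measured in normal livers and liver tumors of C3H mice, a strain whose males develop liver tumors with age. The members were 10 genes chosen by name: the ligands Vegfa, Vegfb, Vegfc and Pgf, the receptors Flt1, Kdr and Flt4, the angiopoietins Angpt1 and Angpt2, and their receptor Tek. They were read by 14 of the 55681 probes on the array, found through the gene name in the array files or the current symbol of the probe's accession. Of the 34732 genes named on the array, 18560 could be tested, among them 9 of the 10 members with 12 probes. The study compared 3 normal livers with 3 liver tumors. All tissue came from male C3H/HeN mice aged 74 to 75 weeks, untreated F2 animals of a control group kept on a standard diet and tap water. By the study's methods the tumors carried a mutation of Ha-ras, the oncogene that drives growth through the Ras-Raf-Erk cascade, so tumors without it were not represented. The labels do not say whether the samples of a group came from separate animals, nor whether a tumor and a normal liver with the same number came from one mouse, and p-values therefore measure only the spread between these samples.

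Vegfa is secreted by hepatocytes and other cells and acts on endothelial cells through Kdr (Vegfr2), the main signalling receptor, while Flt1 (Vegfr1) binds Vegfa, Vegfb and Pgf tightly and in its soluble form acts as a trap. Vegfc signals mainly through Flt4 (Vegfr3), the receptor of lymphatic vessels that sinusoidal endothelium also carries. Angpt1 activates the endothelial receptor Tek (Tie2) and keeps vessels quiet, and Angpt2, released by activated endothelium, competes with it in many settings. In liver these systems maintain the fenestrated sinusoids, and in tumors they take part in the growth and remodelling of vessels.

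Each probe is a 60-base oligonucleotide, and the probes of one gene can read different transcripts. The first 30 bases of the probes of Flt1 and Kdr, of the brighter Vegfa probe and of both angiopoietin probes are shown because the results for these genes rest on what each probe binds. They are written 5′ to 3′ as the array files give them, in lower case throughout since no base is singled out.
Flt1 probe 1: aagtaaagaaaagctatcgggattctctgg
Flt1 probe 3: ggagggtactgccgttcctgtgtggtattt
Flt1 probe 2: tccctatcccaactacacattcaatcttct
Kdr probe 1: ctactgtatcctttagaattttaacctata
Kdr probe 2: tgtttaaatggaagtggtcctgtcccggct
Vegfa probe 2: cagatcggtgacagtcactagcttgtcctg
Angpt1 probe: catgtgtgtagcaatttgatacgcatagct
Angpt2 probe: acctatcttgatggcttagtttttaatggc
In the mouse build mm9, which the array files use, the Flt1 probes lie on the minus strand at chr5:148373791-148373850, chr5:148446872-148446931 and chr5:148465976-148466035, in the order of the first 3 lines. Probe 1 of Flt1 belongs to the RefSeq transcript and is separated by 73021 bases from probe 3, which the design assigns to an Ensembl transcript, and by 92125 bases from probe 2, which it assigns to a cDNA clone. The Kdr probes lie on the minus strand at chr5:76329309-76329368 and chr5:76330395-76330454, with 1026 bases between them, and share one RefSeq transcript. The Vegfa probe shown lies at chr17:46154387-46154446 on the minus strand, and the other Vegfa probe, at a distance of 7929 bases, at chr17:46162376-46162435. The Angpt1 probe lies at chr15:42256335-42256394 and the Angpt2 probe at chr8:18691458-18691517, both on the minus strand. Whether a probe falls in a coding exon or an untranslated region was not analysed here, since no annotation of this build was used.

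The expression values given here are linear ratios of a probe's signal to the 75th percentile of all spots on the same array, and a value of 1.0 therefore equals that percentile. Probes differ in how strongly they bind, so levels of different genes were not ranked. Where a difference between 2 genes is given, it is compared between tumors and normal livers and says nothing of which gene is the more abundant. The scanner software marked 44.7% to 48.9% of an array's spots as well above background and 0 as saturated. Each tissue had a slide of its own, with a median local background of 42 to 45 for normal liver and 22 to 23 for tumor, and the effects of slide and tissue cannot be told apart. In bulk tissue, fewer cells of a type and less RNA per cell cannot be told apart either. Over all tested genes the median log2 change was -0.13 at the scaling used here. This value depends on the scaling, and over all tested probes it was 0.003 when the arrays were scaled to the spike-in probes.

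Among the 9 tested members the 1 called at an adjusted p under 0.05 was Angpt2, with higher values in the tumors. Its probe entered the test through the tumor arrays, on which it was bright enough, and it was not called when no filter on dim probes was applied (limma adjusted p = 0.0588). By the rule used throughout (limma, Benjamini-Hochberg adjustment over all tested probes, each gene by its brightest probe) 34.2% of all tested genes (33.1% of the tested probes) were called, 13.2% as higher in the tumors and 21.0% as lower. At an unadjusted limma p under 0.05 there were 11178 of the 24889 tested probes, in either direction, which is the background for the unadjusted counts below. The median log2 change of the tested members was 0.25, with 7 of 9 above 0, against -0.13 for all genes tested, with 7069 of 18560 above 0. The values of the groups did not overlap for Vegfc and Angpt2, both higher in the tumors. Over all tested genes 51.8% did not overlap, 18.3% with higher and 33.5% with lower values in the tumors.

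**Figure D1:**
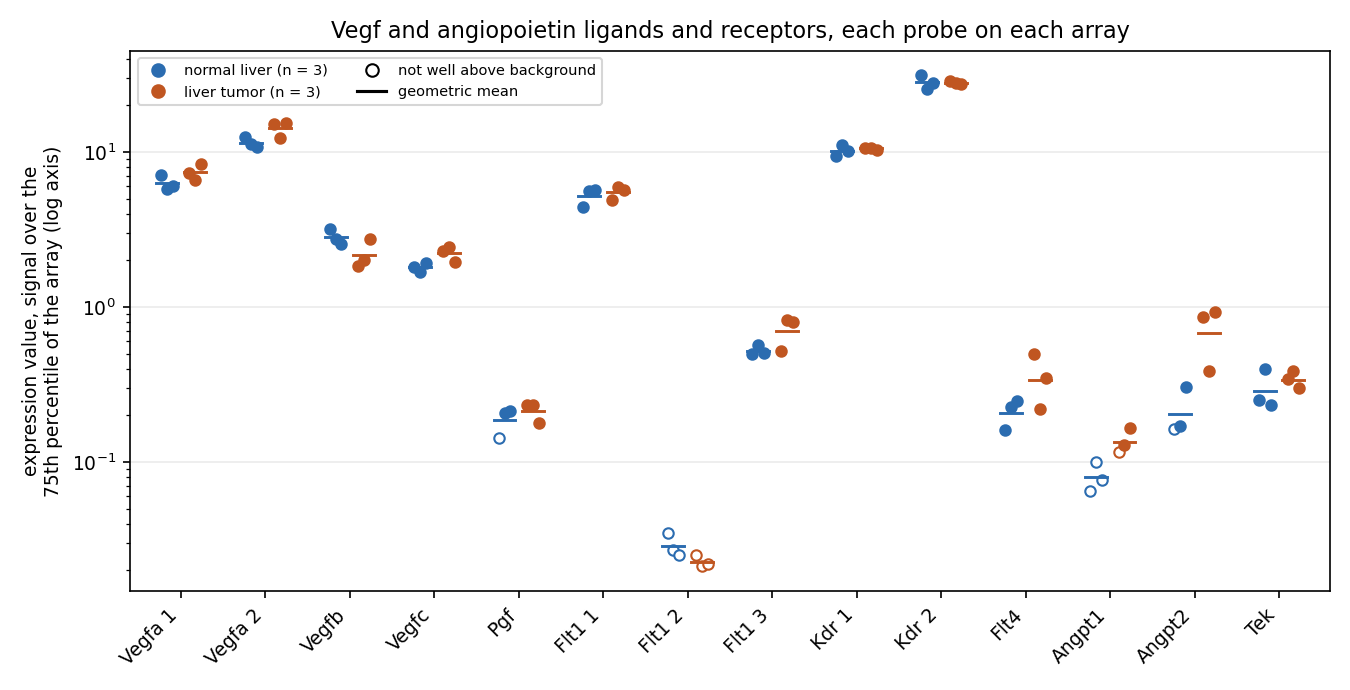
Expression value (signal over the 75th percentile of the array, log axis) of each of the 14 member probes on each of 3 normal liver arrays (blue) and 3 liver tumor arrays (orange). Open points were not well above background, bars are geometric means, and probes of one gene are numbered as beside their sequences. Angpt2 and Vegfc show tumor points wholly above the normal points among the tested probes, while the points of both Kdr probes lie over each other.

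Of the ligands, Vegfa was read by 2 probes. The brighter probe (probe 2) had expression values of 12.5, 11.2 and 10.7 in the normal livers and 15.2, 12.3 and 15.3 in the tumors. Tumor 2 fell within the range of the normal livers and the other tumors lay above it. The log2 change was 0.31 (SE 0.134, 95% interval -0.01 to 0.63, limma adjusted p = 0.120). The dimmer Vegfa probe gave 7.11, 5.74 and 6.05 against 7.35, 6.59 and 8.32, a log2 change of 0.24 (SE 0.142, adjusted p = 0.244). Both probes thus pointed the same way with neither past the threshold, and the interval of the brighter one leaves room for a fold change between 0.993 and 1.55. With normexp background correction, which models background in place of the scanner software's own subtraction, the brighter probe passed (adjusted p = 0.0422).

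Vegfb, a ligand of Flt1 linked to fatty acid handling, was the member with the lowest log2 change. Its values were 3.18, 2.75 and 2.55 in the normal livers and 1.85, 2.01 and 2.73 in the tumors. Tumor 3 lay within the normal range and the other tumors below it. The log2 change was -0.38 (SE 0.180, 95% interval -0.81 to 0.05, limma adjusted p = 0.154). Leaving out that tumor, the one within the normal range, gave an adjusted p of 0.0435 (limma, 2 tumors against 3 normal livers). With any other array left out it was 0.168 to 0.342, so the low p depends on which tumor was dropped.

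Vegfc, the ligand that drives growth of lymphatic vessels through Flt4, gave 1.82, 1.68 and 1.91 in the normal livers and 2.29, 2.42 and 1.96 in the tumors. All tumors lay above all normal livers, tumor 3 only narrowly. The log2 change of 0.30 (SE 0.126, 95% interval of the fold change 0.998 to 1.52) did not pass the test, with a limma adjusted p of 0.114. Pgf, a placental growth factor that binds Flt1 and not Kdr, was near the detection limit and well above background on 2 of 3 normal and 3 of 3 tumor arrays. It gave 0.144, 0.207 and 0.214 against 0.232, 0.231 and 0.177, overlapping ranges with a log2 change of 0.19 (SE 0.200, adjusted p = 0.498) that turned to -0.052 with normexp.

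Of the receptors, Kdr had values that hardly differed between the groups. Its brighter probe (probe 2) gave 31.2, 25.4 and 27.9 in the normal livers and 28.8, 27.8 and 27.5 in the tumors. The tumors all fell inside the range of the normal livers. The mean was 28.2 ± 2.89 (SD, n = 3) against 28.0 ± 0.707 (SD, n = 3), and the 95% interval of the fold change ran from 0.822 to 1.21 (limma adjusted p = 0.990). The other Kdr probe gave 10.2 ± 0.900 against 10.5 ± 0.155 (SD, n = 3 each), with a fold interval of 0.857 to 1.24 and an adjusted p of 0.788. The sign of the brighter probe's log2 change, close to 0, turned under several scalings.

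Flt1 gave a like picture with its brightest probe (probe 1). The values were 4.38, 5.58 and 5.65 in the normal livers and 4.90, 5.90 and 5.69 in the tumors, with overlapping groups. The log2 change was 0.09 (SE 0.148, 95% interval -0.27 to 0.44, limma adjusted p = 0.689). Probe 3 of Flt1, assigned to another transcript, gave 0.493, 0.572 and 0.502 against 0.522, 0.820 and 0.801, a log2 change of 0.43 (SE 0.198, adjusted p = 0.146). Tumors 2 and 3 lay above the normal livers and tumor 1 among them, and without tumor 1 the adjusted p was 0.0191. With any other array left out it was 0.189 to 0.343, so the low p depends on which tumor was dropped. Probe 2 stayed between 0.021 and 0.035 and was not well above background on any of the 6 arrays, so it was not tested. Which Flt1 forms, soluble or membrane-bound, each probe reads was not analysed here.

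Flt4 had values of 0.160, 0.226 and 0.248 in the normal livers and 0.499, 0.220 and 0.350 in the tumors. Tumor 2 lay among the normal livers and the other tumors above them. The log2 change of 0.70 (SE 0.321) had a wide 95% interval, from -0.07 to 1.47, and a limma adjusted p of 0.140. Without tumor 2, the one among the normal livers, the adjusted p was 0.0415, and with any other array left out it was 0.160 to 0.320. The low p thus depends on which tumor was dropped. With normexp the log2 change was 0.074 (adjusted p = 0.749).

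**Figure D2:**
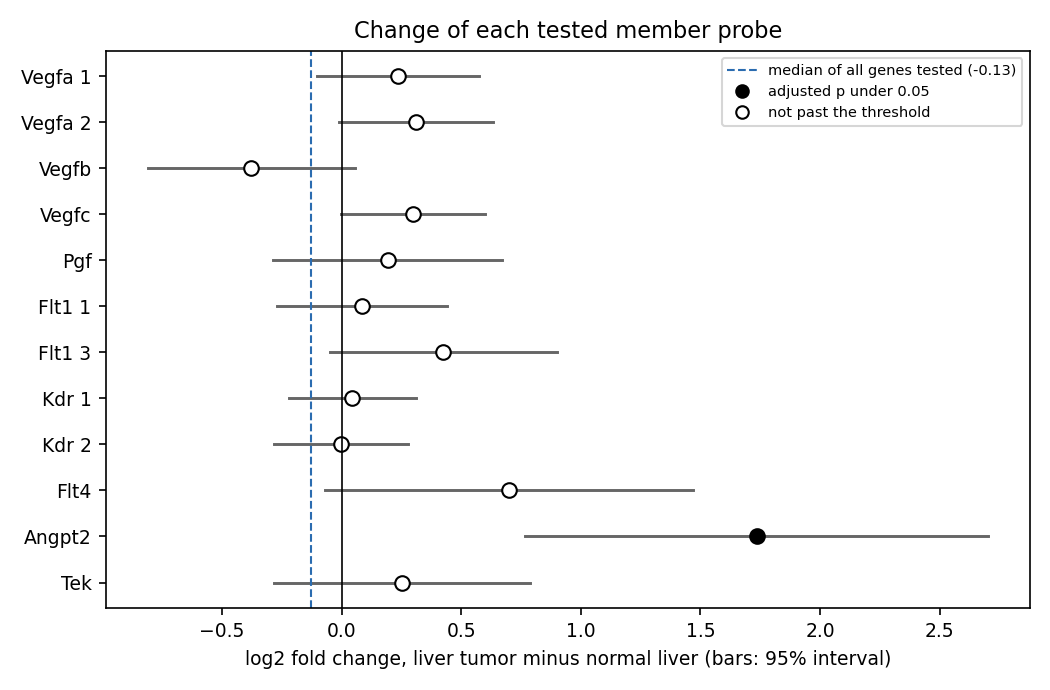
Log2 fold change (liver tumor minus normal liver) of the 12 tested member probes, with 95% intervals from limma, 3 arrays per group. The filled point is the probe past an adjusted p of 0.05 (Angpt2, 1.74), and the dashed line is the median of all genes tested (-0.13). Both Kdr intervals are narrow and span 0, and the interval of Vegfb is the one centred farthest below 0.

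In the angiopoietin system, Angpt2 had higher values in all tumors than in all normal livers. It gave 0.163, 0.170 and 0.306 in the normal livers and 0.866, 0.387 and 0.929 in the tumors. Tumor 2 was the lowest of the tumors and normal liver 3 the highest of the normal livers. The means were 0.213 ± 0.0806 in the normal livers and 0.727 ± 0.296 in the tumors (SD, n = 3 each). The fold change was 3.33 (95% interval 1.70 to 6.51), a log2 change of 1.74 (SE 0.403), with a limma adjusted p of 0.0197. Because the tumor arrays, where it is high, let it through the filter, this p is not free of that choice. Without the filter the limma adjusted p was 0.0588, and in the methods' unpaired test it was 0.0796. The gene spans chr8:18690263-18741562 in GRCm38.p6.

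The Angpt2 probe was well above background on 2 of 3 normal and 3 of 3 tumor arrays, and normal liver 1 was the array below. The call was lost without normal liver 1 (0.0640), normal liver 2 (0.0662), tumor 1 (0.0527) or tumor 3 (0.0542), these being limma adjusted p-values, and the log2 change was 0.78 with normexp (adjusted p = 0.0158). A stricter filter, on all 6 arrays, left the probe out.

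**Figure D3:**
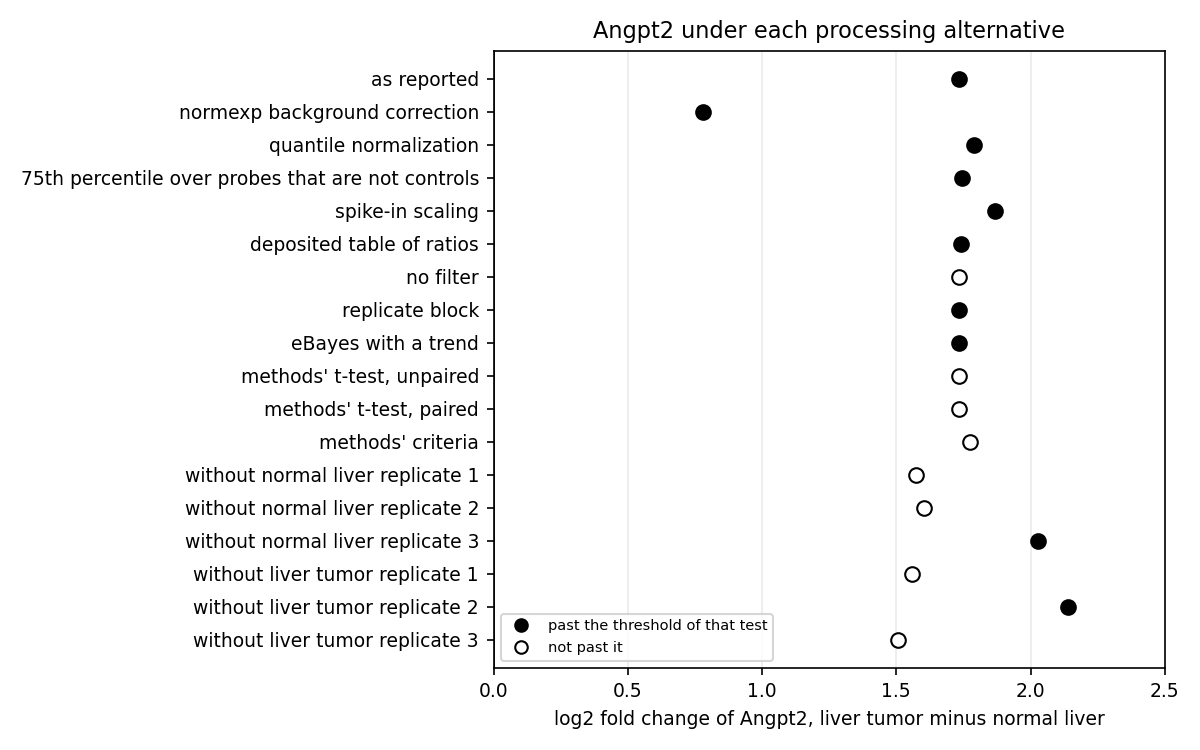
Log2 fold change of Angpt2 (liver tumor minus normal liver, horizontal axis) under each way of processing the arrays, 1 point per setting. Filled points were past an adjusted p of 0.05 (for the methods' criteria, past all of them) and open points were not. All points lie above 0, between 0.78 with normexp background correction and 2.14 without liver tumor 2.

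Angpt1, the ligand that activates Tek and comes largely from perivascular cells, was dim. It gave 0.0652, 0.1001 and 0.0769 in the normal livers and 0.116, 0.128 and 0.165 in the tumors, and was well above background on 0 of 3 normal and 2 of 3 tumor arrays. It was therefore not tested. The geometric mean of the tumors was 1.19 times the lowest signal well above background on the normal arrays. Since not every tumor array was itself well above background, this ratio is not read as a rise. All tumor values were above the normal values, and without the filter on dim probes the limma adjusted p was 0.10. Tek gave 0.251, 0.395 and 0.234 against 0.341, 0.385 and 0.299, with all tumors inside the normal range. Its log2 change was 0.25 (SE 0.224, 95% interval on the fold scale 0.821 to 1.73, limma adjusted p = 0.424), and 0.020 with normexp.

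Whether members changed by unequal amounts was tested over 5 pairs on the per-array log2 difference, with a two-sided exact permutation test whose smallest possible p is 0.1 with 3 against 3 arrays. Vegfa moved up against Vegfb by 0.69, with no overlap between tumors and normal livers (exact p = 0.1, 0.375 adjusted over the 5 pairs). The difference was 2.02 ± 0.0518 in the normal livers and 2.71 ± 0.290 in the tumors on the log2 scale (SD, n = 3 each). The pair Angpt2 and Angpt1 is given no value, since Angpt1 was not well above background on the normal arrays. For Flt1 minus Kdr the shift was 0.09 (exact p = 0.8), for Flt4 minus Kdr 0.70 (exact p = 0.3) and for Pgf minus Vegfb 0.57 (exact p = 0.3).

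Of 15 other genes that bind the same ligands or act beside the receptors 12 were tested, and limma called 0 higher, 5 lower and 7 neither way (1 higher and 5 lower at an unadjusted p under 0.05), where 21.0% of all tested genes were called lower. Of all 24889 tested probes 11178 had an unadjusted p under 0.05, in either direction. The median log2 change of this list was -0.41. Without normal liver 1, or without normal liver 2, limma called 3 of these genes, and under spike-in scaling 1. The called genes were Nrp1, Nrp2, Tie1, Plcg1 and Dok2. Nrp1, the neuropilin that presents Vegfa to Kdr, gave 2.30, 2.26 and 2.42 in the normal livers and 0.751, 1.21 and 1.09 in the tumors. It fell by 1.22 on the log2 scale (SE 0.191, limma adjusted p = 0.00558), with every tumor well below every normal liver. It passed the threshold in 16 of 17 alternative settings, the exception being the methods' test paired by replicate number, which called 0 probes of the whole array after adjustment and 7679 at an unadjusted p under 0.05.

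Nrp2, the neuropilin that binds Vegfc as well and works with Flt4, gave 9.97, 10.02 and 6.89 in the normal livers and 4.13, 5.59 and 4.81 in the tumors. The groups did not overlap, and the log2 change was -0.88 (SE 0.196, limma adjusted p = 0.0173). A second Nrp2 probe gave -0.67 (SE 0.189, adjusted p = 0.0369). Tie1, the orphan partner of Tek that tunes angiopoietin signals, gave 1.29, 1.18 and 1.36 against 0.718, 0.828 and 0.844, again with no overlap. Its log2 change was -0.68 (SE 0.120, adjusted p = 0.00805).

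Plcg1, the phospholipase through which Kdr activates Erk, changed by -0.63 and Dok2, an adaptor that binds Tek, by -0.92 (limma adjusted p = 0.00738 and 0.0254). Both are also used by blood cells and other cell types. Under scaling to the spike-in probes, Nrp1 was the gene of this list still called, and Tie1 (adjusted p = 0.119), Plcg1 (0.172), Nrp2 (0.0613) and Dok2 (0.0582) kept their sign without passing. Vegfd, the other lymphatic ligand, gave 0.451, 0.434 and 0.322 against 0.494, 0.992 and 0.281 (adjusted p = 0.548), tumor 2 standing above the rest. Ptprb, the phosphatase that restrains Tek, gave 22.3 ± 4.28 and 19.7 ± 2.68 (SD, n = 3 each, adjusted p = 0.517). Angpt4, a further angiopoietin, was not well above background on any of the 6 arrays.

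**Figure D4:**
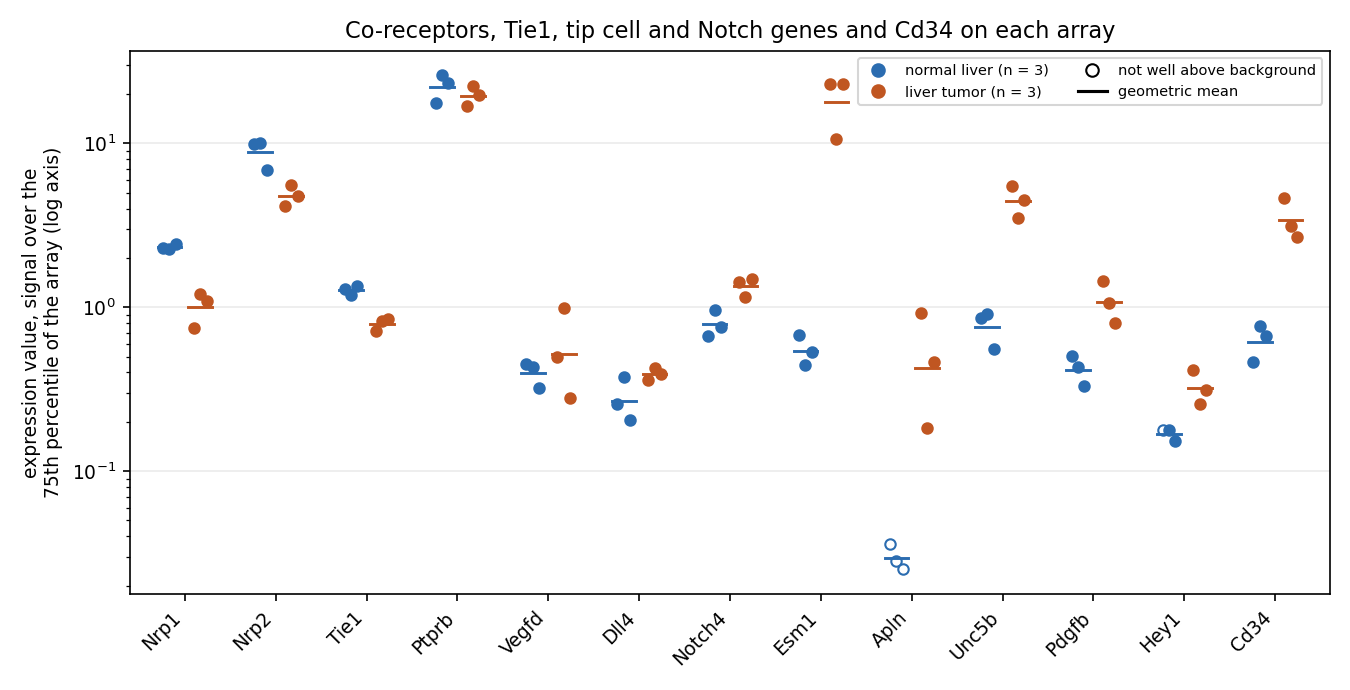
Expression value (signal over the 75th percentile of the array, log axis) of the neuropilins, Tie1, Ptprb, Vegfd, Notch and tip cell genes and Cd34 on each of 3 normal liver arrays (blue) and 3 liver tumor arrays (orange). Open points were not well above background and bars are geometric means. Nrp1, Nrp2 and Tie1 lie lower in the tumors, while Esm1, Apln, Unc5b, Pdgfb and Cd34 lie higher, Esm1 by a log2 change of 5.04.

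The next list held genes that mark the leading, or tip, cells of sprouting vessels and genes of the Notch pathway that restrains them. Of 13 genes 10 were tested, 7 of them well above background on all 6 arrays. Limma called 6 higher and 1 lower, against 13.2% and 21.0% of all tested genes, with a median log2 change of 1.02. With normexp 5 were called higher and 1 lower, with a median of 0.41. Esm1, a secreted proteoglycan that endothelial cells make in response to Vegfa, gave 0.680, 0.445 and 0.530 in the normal livers and 23.1, 10.7 and 23.0 in the tumors. All tumors lay far above all normal livers, and the log2 change was 5.04 (SE 0.334, limma adjusted p = 0.000301). Apln, the tip cell ligand apelin, did not rise well above background on the normal arrays (0.036, 0.028 and 0.025) and gave 0.924, 0.183 and 0.462 in the tumors. Set against the lowest signal well above background on the normal arrays, the tumor level was at least 3.77-fold higher at the scaling used here. The probe entered the test through the tumor arrays alone, and with normexp the log2 change was 1.04.

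Unc5b, a netrin receptor of tip cells, gave 0.861, 0.905 and 0.560 against 5.48, 3.50 and 4.51, a log2 change of 2.54 (SE 0.245, limma adjusted p = 0.00113). Pdgfb, which tip cells release to recruit pericytes, rose from 0.422 ± 0.0854 to 1.11 ± 0.330 (SD, n = 3 each, adjusted p = 0.00985). Hey1, a target of Notch, changed by 0.93 on the log2 scale (adjusted p = 0.0136). It passed in 12 of 16 alternative settings, with a lowest log2 change of 0.25. The called gene of this list that fell, named here after its value was seen, was the receptor Notch1 (log2 change -0.65, adjusted p = 0.0240). Notch1 passed in 8 of 17 alternative settings and not under spike-in scaling (adjusted p = 0.169). Esm1, Unc5b and Pdgfb passed in 16 of 17 alternative settings, all but that paired test.

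Genes of the hypoxia response, which includes transcription of Vegfa through Hif factors, did not move in one direction. Of 22 genes 21 were tested. Limma called 3 higher and 1 lower, against 13.2% and 21.0% of all tested genes, with a median log2 change of -0.03. That median was 0.10 under spike-in scaling, and without tumor 3 limma called 8 of these genes. Epas1 (Hif2a), a Hif subunit abundant in endothelium and hepatocytes, rose from 65.1 ± 6.36 to 121 ± 15.1 (SD, n = 3 each, limma adjusted p = 0.00549). The Hif targets Ndrg1 and Kdm3a rose by 0.69 and 0.65 on the log2 scale (adjusted p = 0.0119 and 0.00957). Pdk1, a kinase that diverts pyruvate from the mitochondria, fell by 1.11 (adjusted p = 0.00986).

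Of 11 genes of secreted or matrix-bound angiogenesis inhibitors 7 were tested. Limma called 2 higher and 2 lower, against 13.2% and 21.0% of all tested genes. Serpinf1 (Pedf) had a log2 change of -0.61 (limma adjusted p = 0.00886). The other gene counted as lower, Vash1 (vasohibin), is uncertain, since its brightest probe (log2 change -1.01) lies on chromosome 6 and another (-1.02) on chromosome 17 of mm9, while the probe on its own chromosome 12 gave 0.01 (SE 0.223, adjusted p = 0.982). The chemokine Cxcl10, which blocks vessel growth, rose by 1.69 on the log2 scale (adjusted p = 0.00736) and Timp3, which can block the binding of Vegfa to Kdr, by 0.51 (adjusted p = 0.0144).

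The receptors and Angpt2 are made mostly by endothelial cells, so markers of the vessel wall were read beside them. Of 16 endothelial markers 16 were tested, and limma called 9 higher and 0 lower (10 and 0 at an unadjusted p under 0.05). Over all tested genes 13.2% were called higher and 21.0% lower, and 11178 of 24889 tested probes had an unadjusted p under 0.05 in either direction. The endothelial markers had a median log2 change of 0.54. The sum of their expression values was 69.5 to 78.1 in the normal livers and 98.3 to 108 in the tumors, with no marker at 0. Cd34, a sialomucin of capillary endothelium that sinusoids largely lack, gave 0.464, 0.764 and 0.665 against 4.67, 3.14 and 2.69 (log2 change 2.46, SE 0.267, limma adjusted p = 0.00176). The transcription factors Sox17 and Sox18 changed by 1.05 and 0.69, Ecscr by 0.83 and Emcn (endomucin) by 0.70 (adjusted p = 0.0119, 0.0132, 0.00538 and 0.00996). The lowest log2 change over the alternative settings was 0.33 for Sox17 and 0.15 for Emcn. With normexp 7 endothelial markers were called higher, with a median of 0.36, and under spike-in scaling 6, with a median of 0.67. The pan-endothelial adhesion molecules Pecam1 and Cdh5, named after their values were seen, had log2 changes of -0.01 and 0.14 and were not called, and the sign for Pecam1 turned in 4 of 17 alternative settings.

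Of 10 sinusoidal markers 10 were tested, and limma called 1 higher and 2 lower, against 13.2% and 21.0% of all tested genes. Their median log2 change was -0.15, against -0.13 for all genes tested. The scavenger receptor Stab1 rose by 0.66 (limma adjusted p = 0.0185), while Stab2, the hyaluronan receptor, had a log2 change of -0.78 (adjusted p = 0.0154) and the lectin Clec4g one of -0.49 (adjusted p = 0.0495). Under spike-in scaling Stab2 (adjusted p = 0.0942) and Clec4g (0.401) were not called, and Clec4g passed in 6 of 17 alternative settings, Stab1 in 11. The summed values of the 10 sinusoidal markers, in which bright probes weigh most, were 104 to 125 in the normal livers and 87.0 to 99.3 in the tumors. Under spike-in scaling 2 of these markers were called higher and 0 lower, with a median log2 change of -0.02. Of 4 lymphatic markers 1 was tested, Reln, which rose by 0.72 (limma adjusted p = 0.0212). Its values were 0.284 to 0.375 in the normal livers and 0.432 to 0.572 in the tumors. Reln passed in 9 of 17 alternative settings, and with normexp its log2 change was 0.22 and it was not called. Which cells of the tissue gave this signal was not tested, and 1 gene does not measure the lymphatic vessels. How far the mix of endothelial cells contributes to the values of Angpt2 and the receptors was not tested.

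Markers of cells that surround or line sinusoids were also counted. Of 10 markers of stellate cells and pericytes 9 were tested. Limma called 8 lower and 0 higher, against 21.0% and 13.2% of all tested genes. At an unadjusted p under 0.05, which 11178 of 24889 tested probes reached in either direction, these counts were 8 and 1. Under normexp and under spike-in scaling 1 was called higher. The summed values were 108 to 115 in the normal livers and 24.6 to 53.3 in the tumors. Lrat, the enzyme that stores vitamin A in stellate cells, changed by -1.83, and Hgf, the hepatocyte growth factor these cells secrete, by -1.55 (limma adjusted p = 0.00233 and 0.00279). Ecm1, Colec11 and Rgs5 changed by -1.71, -1.47 and -1.14 (adjusted p = 0.0130, 0.0108 and 0.00977). The tested marker that was not called, Acta2 (smooth muscle actin), named after its value was seen, had a log2 change of 1.15. Of 8 macrophage markers limma called 6 lower and 0 higher (7 and 0 at an unadjusted p under 0.05), against 21.0% and 13.2% of all tested genes. The summed values of these markers were 101 to 173 in the normal livers and 51.4 to 84.7 in the tumors. The summed values of both lists were lower in the tumors, as were Nrp1, Nrp2 and Tie1, and their part in those values was not tested.

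Of 8 hepatocyte markers 1 was called higher and 2 lower, where 34.2% of all tested genes were called either way. The summed values of 6866 to 7642 in the normal livers and 6919 to 7269 in the tumors overlapped. Of 3 tested cholangiocyte markers and 2 tested megakaryocyte and platelet markers limma called 0, and 0 at an unadjusted p under 0.05, and their summed values overlapped between the groups.

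**Figure D5:**
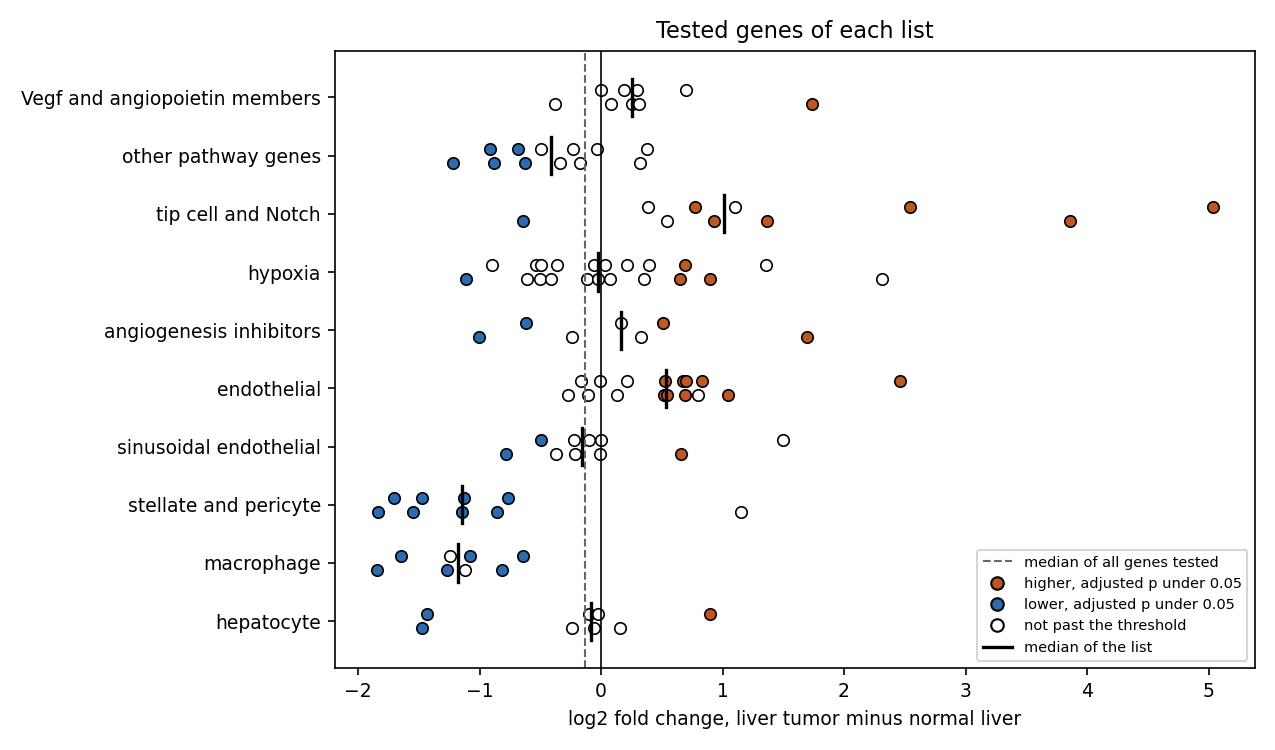
Log2 fold change (liver tumor minus normal liver) of the tested genes of the members and of lists of related genes or cell markers, 1 point per gene, each by its brightest probe. The lymphatic, cholangiocyte, and megakaryocyte and platelet lists are not drawn. Filled points were past an adjusted p of 0.05 in limma, the short vertical bars are list medians and the dashed line is the median of all genes tested (-0.13). The members lie mostly between 0 and 1, the tip cell and endothelial lists have medians of 1.02 and 0.54, and the stellate and macrophage lists lie mostly below 0.

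The receptors were also set against the endothelial markers of the same array, and the result depended on how those markers were summarised. Against the median level of the 16 endothelial markers on each array, Kdr moved by -1.31, Flt1 by -1.22, Tek by -1.05 and Flt4 by -0.60 on the log2 scale, and Angpt2 by 0.43. That array median itself moved by 1.30, while the median log2 change of the same 16 genes was 0.54, so these shifts are not read as a change of the receptors. Against the mean of the same markers, an alternative chosen after the data were seen, the shifts were -0.54 for Kdr, -0.45 for Flt1 and -0.28 for Tek, while Flt4 turned to 0.16 and Angpt2 stood at 1.20.

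The promoters of the members were searched for short motifs. RefSeq promoter windows of 300 bases, each with a start site (GRCm38.p6), were at hand for 8 of the 10 members. These were 10 windows, with 2 each for Vegfa and Pgf. Counting a gene where at least 1 of its windows held the letters on either strand, 5 of these 8 members held the hypoxia response element core ACGTG or GCGTG, against 46.7% of 27025 genes with windows. Vegfa was counted through its window inside the gene (chr17:46025114-46025413). Its window at the upstream end of the gene (chr17:46032328-46032627) held 0 of either core. The GC box GGGCGG was found for 7 of the 8 members, against 38.2% of those genes. These are letter matches in windows of a fixed length and carry no measurement of binding.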

How the data were processed

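Total RNA of 3 normal livers and 3 liver tumors was read on 1-dye SurePrint G3 Mouse GE arrays. The authors deposited for each array the signal intensity from Feature Extraction (10.7.3.1 by the file headers, 12.0.3.1 by the submitters' processing notes), background subtracted and spatially detrended, and a table of ratios of that intensity to the array's 75th percentile, tried here in its place. Intensities were put on the log2 scale and each array's 75th percentile, taken with controls included, was subtracted. Outlier and control spots were dropped and repeated spots averaged. A probe was tested where every array of a group had it well above background (24889 of 55681), with limma 3.58.1 in R 4.3.3 (lmFit, eBayes) and Benjamini-Hochberg adjustment at 0.05. The fit was also run on simulated arrays drawn from the means and spread of these data. A gene is given by its brightest tested probe, the one with the highest mean log2 signal. RefSeq gave the symbol by accession for 27235 probes, by symbol for 3581 probes and by synonym on the same chromosome for 554, and 24311 kept the design's name.

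From each list of related genes the text names up to 5 called genes with the highest absolute log2 change, and genes that bind the ligands or receptors directly. The members and the lists were chosen with earlier results of these data known. Alternatives covered background correction, scaling, filters, tests, the replicate number as a block and each array left out. With 3 arrays a group the number of arrays limits the precision.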

Additional observations from a re-analysis of the deposited data

How the results depend on the processing

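The slide of each group, the dim signal of Angpt1, Angpt2, Pgf, Flt4, Tek and part of the Flt1 probes, and 3 arrays per group limit these values. Compared with 1 member called, normexp called 2 (Vegfa and Angpt2), while limma without a filter called 0 (2 at an unadjusted p under 0.05), limma with the stricter filter, which left Angpt2 out, 0 (2 unadjusted), the methods' t-test unpaired 0 (2) and paired by replicate number 0 (1), and the methods' criteria of 2-fold, a mean above 1.0 and a t-test 0 (2). Over all probes the unadjusted counts were 14007 of 55654 without a filter, 9777 of 21790 with the stricter filter and 10253 of 24889 in the unpaired t-test. For the methods' criteria 12407 of 55654 probes had an unadjusted t-test p under 0.05. Leaving out 1 array at a time gave 0 to 2 members. Where 8238 of 24889 tested probes were called, spike-in scaling called 5058 (2916 higher and 2142 lower, 57.7% higher against 37.8%), no filter gave 4672, the methods' criteria 2036, the paired t-test 0 (7679 unadjusted), and leaving out an array 4951 to 7173. Spike-in scaling moved the median of all tested probes up by 0.13. Where 5 of 12 other pathway genes were called, spike-in scaling called 1, no filter 3, the unpaired t-test 3, the paired t-test 0, the methods' criteria 1 and leaving out an array 3 to 5. Where 4 of 21 hypoxia genes were called, eBayes with a trend called 8, the paired t-test 0, the methods' criteria 1 and leaving out an array 4 to 8. Where 9 of 16 endothelial genes were called, no filter called 5, the paired t-test 0, the methods' criteria 1 and leaving out an array 6 to 9. The causes were not tested.

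Log2 changes near 0 turned their sign: Pgf to -0.052 with normexp, and the brighter Kdr probe to 0.10 with normexp, 0.15 with quantile normalization, 0.0054 with the percentile over probes that are not controls, 0.13 with spike-in scaling and 0.021 with the mean of a gene's probes. With an array left out, Flt1 ranged from -0.034 to 0.17, the dimmer Kdr probe from -0.018 to 0.11 and the brighter one from -0.073 to 0.074. Flt1 minus Kdr ranged from -0.11 to 0.21 with an array left out, and Flt4 minus Kdr was -0.026 with normexp. Relative to endothelial markers, normexp gave -0.81 for Flt1, -0.83 for Kdr and -0.15 for Angpt2, and the mean of the markers -0.45, -0.54 and 1.20, with 0.16 for Flt4 and -0.28 for Tek. With the replicate number as a block limma called 7019 probes and 1 member, Angpt2 (adjusted p = 0.0156). The same-numbered arrays correlated at 0.05 to 0.13 and 4 of 6 arrays correlated best with their own number, which does not settle whether they are pairs. The paper's methods name a paired t-test. As the labels do not state a pairing, the main test used none.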

Other observations

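The array carries 2 probes named Ang3 on chromosome 14, a name that RefSeq also lists as a synonym of Angpt4 on chromosome 2. They were kept apart from the angiopoietins, since their position is not that of Angpt4. Their expression values fell from 16.4 ± 2.99 to 3.29 ± 1.56 and from 12.7 ± 2.13 to 2.17 ± 1.01 (SD, n = 3 each, limma adjusted p = 0.00540 and 0.00400), with no overlap between tumors and normal livers. The probes list accessions of near-identical ribonuclease genes, so which copy they read is uncertain. The probe of Angpt4 itself stayed at 0.024 to 0.037 and was not well above background on any of the 6 arrays.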
